A study of Rattus norvegicus with 12 samples.

Results

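The genes examined here, in the preoptic area of newborn rats, encode subunits of the NMDA receptor and a postsynaptic scaffold that binds it, PSD-95. They were chosen by name, though with earlier results of these data known. The genes were Grin1 (ENSRNOG00000011726), Grin2a (ENSRNOG00000033942), Grin2b (ENSRNOG00000008766) and Dlg4 (ENSRNOG00000018526), 4 of the 29516 Ensembl identifiers in each library's file. The files give identifiers without symbols, so the names rest on the pairing under which the genes were chosen. All 4 passed the filter on low values, at least 0.5 RPKM (reads assigned to a gene, scaled by the length of its model and by the library's total) in at least 3 libraries, along with 16310 genes in all.

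Rat pups of both sexes were given vehicle or zebularine, a nucleoside that blocks the enzymes of DNA methylation. Vehicle contained 0.1% of a solvent, DNMSO as the labels spell it, in saline. Dosing was on postnatal days 0 and 1. Brain tissue of the preoptic area was collected on postnatal day 2, and total RNA was sequenced. Each sex had 3 vehicle libraries and 3 zebularine libraries, 4 groups in all. The labels give no strain, dose or route, and do not state whether a library came from 1 animal or a pool, so p-values measure the spread between libraries, which may be technical.

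NMDA receptors are glutamate-gated channels that pass calcium when glutamate is bound and the membrane is depolarised. Each contains the obligatory GluN1 subunit, encoded by Grin1, together with GluN2 subunits that set its kinetics and its partners in the cell. In the rodent forebrain GluN2B predominates around birth and GluN2A rises during postnatal life. Dlg4 encodes PSD-95, a scaffold of the postsynaptic density that binds the tails of GluN2 subunits.

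Zebularine acts on enzymes that methylate the C of the dinucleotide CG, and the promoter of Grin1 is shown because it is rich in that dinucleotide. The sequence is the 250 bases before the RefSeq start on the minus strand of assembly GRCr8 (chr3:28528755-28529004), written 5′ to 3′ with each CG in capitals.
Grin1: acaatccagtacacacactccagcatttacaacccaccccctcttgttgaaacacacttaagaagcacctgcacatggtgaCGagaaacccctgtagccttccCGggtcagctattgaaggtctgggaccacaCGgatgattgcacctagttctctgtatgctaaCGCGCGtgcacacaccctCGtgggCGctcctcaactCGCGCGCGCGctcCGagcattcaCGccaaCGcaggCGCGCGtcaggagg
This window held 19 CG dinucleotides, against a median of 5 over 33469 rat promoter windows of the same length, and 18.4% of them held at least as many. The Dlg4 window, the only other one available for these genes, held 5, and 55.3% of windows held at least as many. It spans chr10:55239534-55239783 on the plus strand, inside the RefSeq span of Dlg4, which begins at 55239397. The Grin1 window lies outside the span of its gene, so the counts come from windows that are not placed alike. Methylation was not measured in these libraries, and the count describes the sequence alone.

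The levels of the 4 genes kept the same order in every library. Dlg4 was the most abundant, followed by Grin1, Grin2b and Grin2a, and no value of a gene overlapped that of its neighbour in the order. Over the 12 libraries Dlg4 lay between 42.4 and 54.8 RPKM and Grin1 between 21.0 and 26.2 RPKM. Grin2b lay between 6.84 and 12.4 RPKM, and Grin2a between 1.13 and 1.78 RPKM. The means of 49.1, 23.8, 8.97 and 1.43 RPKM exceeded those of 89.6%, 77.0%, 52.4% and 16.5% of tested genes, whose median was 8.15 RPKM. These are levels per length of gene model, and the model lengths recovered from the values were 9015 bases for Dlg4, 12492 for Grin1, 5259 for Grin2b and 9775 for Grin2a. A level set between genes depends on those models, which were the authors'.

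**Figure D1:**
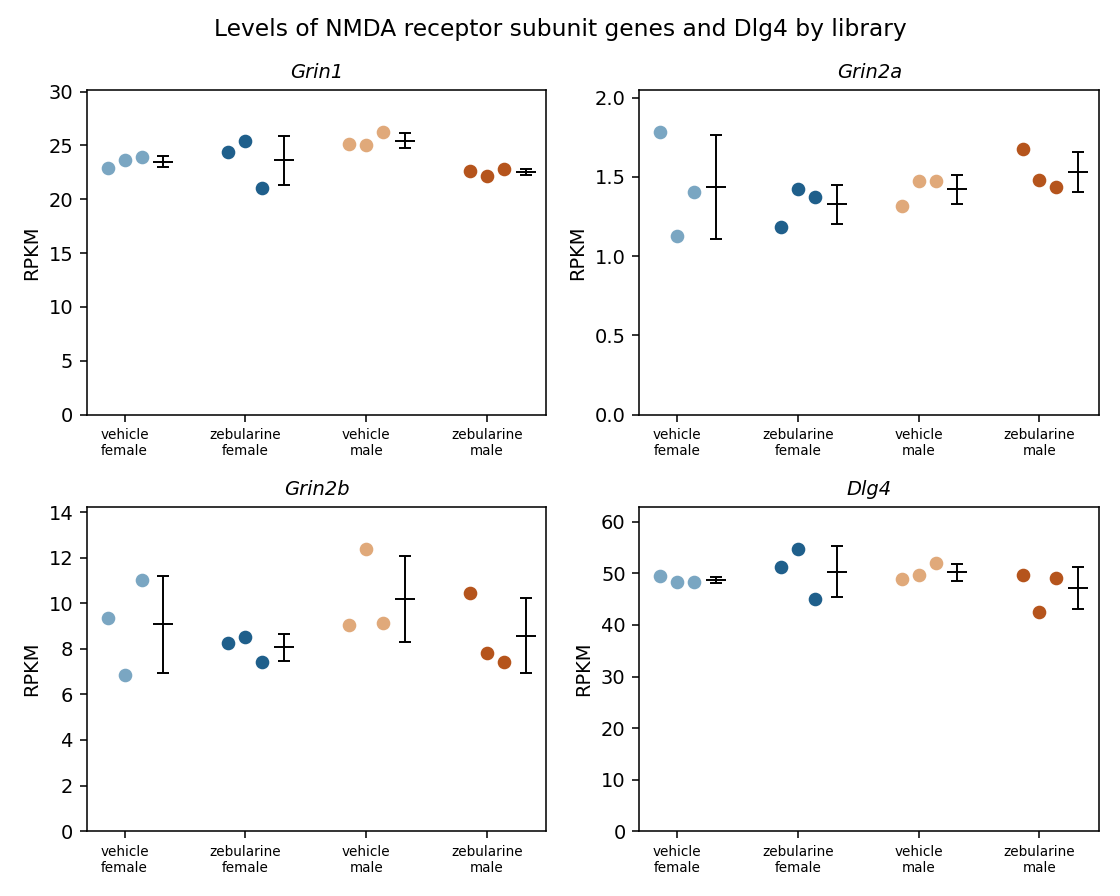
RPKM (y axis, from 0) of Grin1, Grin2a, Grin2b and Dlg4 in each of 12 libraries (points), by group, with the group mean and SD (bars, n = 3). Grin1 in the 3 zebularine males, at most 22.8 RPKM, lies below the 3 vehicle males, at least 25.0 RPKM, whereas treated and vehicle libraries of a sex overlap for the other genes. Treated and vehicle males do not overlap for 14.3% of all tested genes.

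Grin1, the obligatory subunit, stood at 22.9, 23.6 and 23.9 RPKM in vehicle females. Zebularine females held 24.4, 25.4 and 21.0 RPKM. Vehicle males held 25.1, 25.0 and 26.2 RPKM, and zebularine males 22.6, 22.2 and 22.8 RPKM. The 3 vehicle males were above both the 3 vehicle females and the 3 zebularine males without overlap, and the zebularine females spanned most of the range of the other libraries. Of all tested genes, 6.63% had no overlap between the sexes under vehicle, and 14.3% had none between treatments in males. As means, the levels were 23.5 ± 0.535 in vehicle females, 23.6 ± 2.30 in zebularine females, 25.4 ± 0.664 in vehicle males and 22.5 ± 0.313 in zebularine males, in RPKM (SD, n = 3). The reads behind each value numbered from 4391 to 9795.

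Grin2b, the GluN2 subunit that predominates early in life, was the most variable of the 4 genes. Vehicle females stood at 9.34, 6.84 and 11.0 RPKM, and zebularine females at 8.25, 8.52 and 7.40 RPKM. Vehicle males stood at 9.04, 12.4 and 9.15 RPKM, and zebularine males at 10.5, 7.83 and 7.42 RPKM. Treated and vehicle libraries of each sex overlapped, as did the sexes within each treatment. All vehicle males were above all zebularine females, a pair that differs in both sex and treatment. The share of all tested genes without overlap was not computed for that pair. The highest library, vehicle male replicate 2, and the lowest, vehicle female replicate 2, were both from vehicle animals. Group means were 9.07 ± 2.11, 8.06 ± 0.586, 10.2 ± 1.90 and 8.57 ± 1.64 RPKM (SD, n = 3) in the same order of groups. Between 653 and 1807 reads lay behind each value.

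Grin2a, the GluN2 subunit of later postnatal life, was low in all libraries. It stood at 1.78, 1.13 and 1.40 RPKM in vehicle females and at 1.19, 1.42 and 1.37 RPKM in zebularine females. In vehicle males it was 1.32, 1.47 and 1.47 RPKM, and in zebularine males 1.68, 1.48 and 1.44 RPKM. The 3 zebularine males were above the 3 zebularine females, the nearest libraries being 1.44 and 1.42 RPKM, where 15.4% of all tested genes had no overlap. Vehicle females covered the range of all other groups. Group means were 1.44 ± 0.328, 1.33 ± 0.124, 1.42 ± 0.0915 and 1.53 ± 0.126 RPKM (SD, n = 3). These rest on 229 to 499 reads in a library.

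Dlg4, the scaffold gene, stood at 49.5, 48.4 and 48.4 RPKM in vehicle females and at 51.3, 54.8 and 45.0 RPKM in zebularine females. Vehicle males held 48.9, 49.8 and 52.0 RPKM, and zebularine males 49.7, 42.4 and 49.1 RPKM. All groups overlapped, and the 6 vehicle libraries lay within the range of the 6 treated ones. Means were 48.8 ± 0.643, 50.3 ± 4.97, 50.2 ± 1.59 and 47.1 ± 4.06 RPKM (SD, n = 3). Reads numbered 6063 to 14018 in a library.

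Of the 2 GluN2 genes examined, Grin2b made up most of the summed RPKM in each library. Its share of Grin2a plus Grin2b was 86.1% ± 1.85 (SD, n = 12 libraries), from 83.8% to 89.4%. Other GluN2 genes were not analysed, so this is not a share of all GluN2 RNA. The share and the ratios depend on the recovered model lengths, 5259 bases for Grin2b and 9775 for Grin2a. The ratio of Grin2b to Grin2a was 6.39 ± 1.33 in vehicle females, 6.11 ± 0.789 in zebularine females, 7.16 ± 1.12 in vehicle males and 5.56 ± 0.588 in zebularine males (SD, n = 3). Individual libraries ranged from 5.16 to 8.40, and the groups overlapped. Grin2b relative to Grin1 ran from 0.289 to 0.495. In zebularine females this ratio was almost constant, at 0.338, 0.336 and 0.352, while in vehicle females it was 0.408, 0.289 and 0.461. Dlg4 relative to Grin1 varied least of the ratios to Grin1, at 2.07 ± 0.0966 (SD, n = 12 libraries). Vehicle males, at 1.95, 1.99 and 1.98, lay below the 3 vehicle females, whose lowest ratio was 2.02, and below the 3 zebularine females, whose lowest was 2.10. Ratios between these genes were described without a test, and how often ratios of other genes separate groups in this way was not computed.

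**Figure D2:**
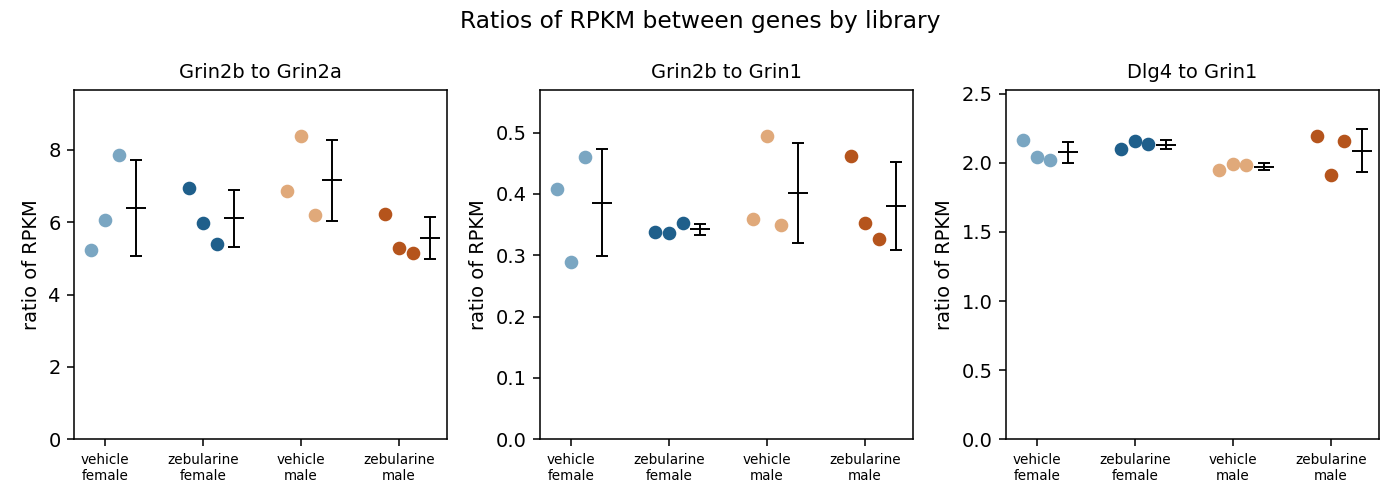
Ratio of RPKM (y axis, from 0) of Grin2b to Grin2a, Grin2b to Grin1 and Dlg4 to Grin1 in each of 12 libraries (points), with the group mean and SD (bars, n = 3). Grin2b exceeded Grin2a at least 5.16-fold in every library, and the ratio of Dlg4 to Grin1 stayed between 1.91 and 2.20.

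Zebularine was compared with vehicle over both sexes to ask whether DNA methyltransferase inhibition altered these genes. None of the 4 passed at an adjusted p of 0.05 in a limma fit over all tested genes, where 0.405% of genes were called (66 genes, with 1233 at an unadjusted p under 0.05). In that fit none of the 4 was under an unadjusted p of 0.05, and none was called by limma-voom on recovered reads. Over the other settings tried, the unadjusted limma p ran from 0.0318 (without zebularine female replicate 2) to 0.214 for Grin1. For Grin2b it ran from 0.0330 (without vehicle female replicate 2) to 0.370. The lowest adjusted limma p was 0.459 for Grin1 and 0.482 for Grin2b. Over both sexes the log2 change of RPKM + 0.5 was -0.08 ± 0.05 (SE) for Grin1, a ratio of 0.943 with a 95% interval from 0.879 to 1.01 (limma adjusted p = 0.681). Grin2b had a log2 change of -0.19 ± 0.13 (SE), a ratio of 0.878 with an interval from 0.724 to 1.06 (limma adjusted p = 0.729). The intervals were 0.863 to 1.16 for Grin2a and 0.903 to 1.07 for Dlg4 (limma adjusted p = 0.996 and 0.925). Each interval includes no change, and changes as large as its ends remain compatible with these 12 libraries. Values of RPKM + 0.5 understate a ratio most for Grin2a, the lowest gene. The median log2 change of the 4 genes was -0.06, against 0.0051 over all tested genes, and 1 of the 4 had a change above 0.

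**Figure D3:**
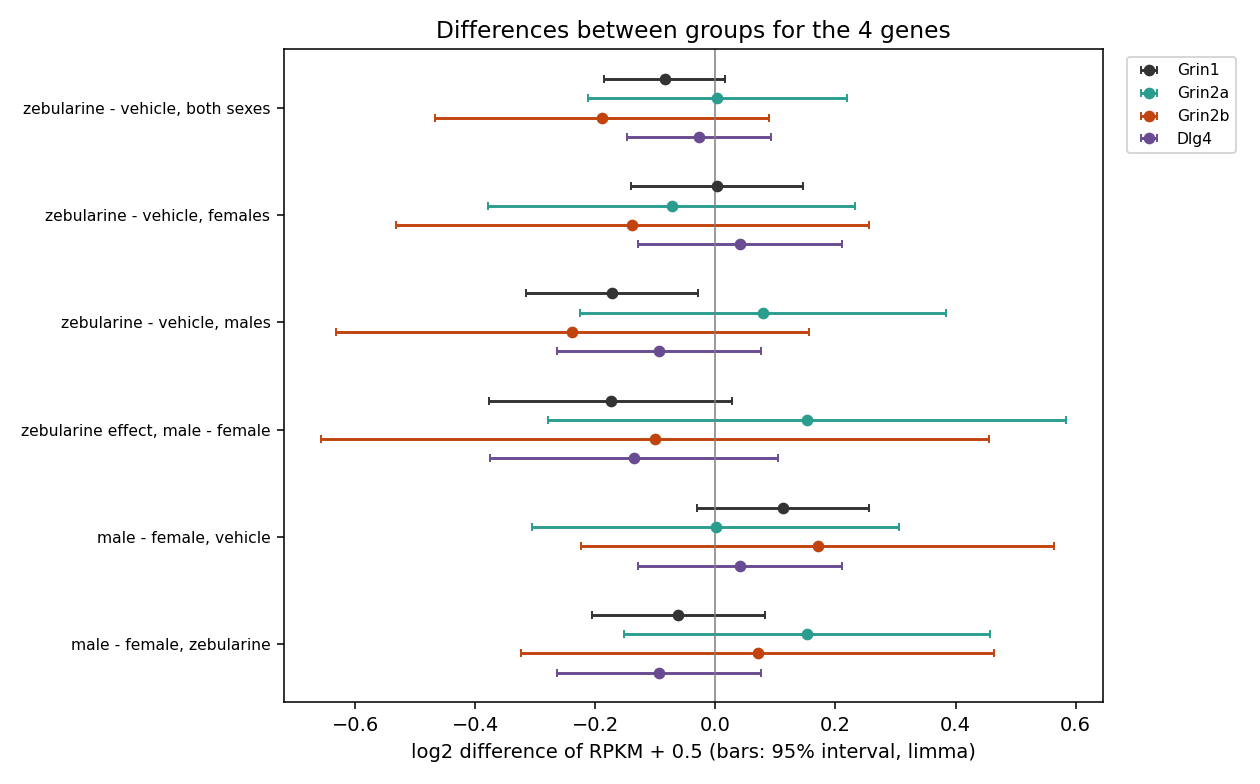
Differences between groups (x axis, log2 of RPKM + 0.5) with their 95% intervals from limma for Grin1, Grin2a, Grin2b and Dlg4 in 6 comparisons. Grin1 in males is the only interval that leaves out 0, from -0.32 to -0.03, and its adjusted p is 0.655.

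Within males, Grin1 came nearest to a difference. Its log2 change was -0.17 ± 0.07 (SE), a ratio of 0.888 with a 95% interval from 0.804 to 0.981, and all 3 treated libraries lay below all 3 vehicle libraries. The unadjusted limma p was 0.0232, smaller than that of all but 3.33% of tested genes, and adjusted over all genes it was 0.655 by limma, within 0.292 to 0.999 under the other settings tried. No tested gene passed in males by limma, a share of 0%, with 1236 genes at an unadjusted p under 0.05, and limma-voom on recovered reads also called 0. Over the alternatives the male comparison had 0 to 4 calls among all genes, apart from 15 when zebularine female replicate 3 was left out, with no member among them. Groups did not overlap for 14.3% of all tested genes in this comparison, and for 1 of the 4 members. Grin2b had a log2 change of -0.24 ± 0.18 (SE) in males, Dlg4 of -0.09 ± 0.08 and Grin2a of 0.08 ± 0.14 (limma adjusted p = 0.738, 0.759 and 0.914). The Grin2b value was -0.10 without vehicle male replicate 2 and -0.38 without zebularine male replicate 1. Without zebularine male replicate 2 the Dlg4 value was -0.02, and without zebularine male replicate 1 that of Grin2a was 0.03. Zebularine males averaged 22454541 reads and vehicle males 26894195, and the part of depth in the Grin1 value was not tested.

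Within females no member passed, and 0.0429% of all genes were called. The log2 change was 0.0026 ± 0.07 for Grin1 and 0.04 ± 0.08 for Dlg4 (SE, limma adjusted p = 1.00 for both). For Grin2b the difference was -0.14 ± 0.18 and for Grin2a -0.07 ± 0.14 (SE, limma adjusted p = 1.00 for both). Treated and vehicle females overlapped for all 4 genes, where 9.21% of tested genes had no overlap. The 95% intervals of the ratio were 0.907 to 1.11 for Grin1, 0.692 to 1.19 for Grin2b, 0.770 to 1.17 for Grin2a and 0.914 to 1.16 for Dlg4.

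Zebularine female replicate 3 stood apart on the first principal component of all genes, with a score of 50.4 where the others lay between -11.6 and 9.49. It also had the lowest Grin1 level of all libraries and the lowest Dlg4 level of the females. Without it the female log2 change was 0.08 for Grin1 and 0.12 for Dlg4 (limma adjusted p = 0.999 for both). The change of Grin1 over both sexes became -0.04 and that of Dlg4 0.01 (limma adjusted p = 0.954 and 0.988).

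Whether the sexes differed in their response was tested directly, and no member passed (0% of all genes called, with 661 genes at an unadjusted limma p under 0.05 and 0 genes called by limma-voom). The male minus female difference of the zebularine effect was -0.17 ± 0.09 (SE) for Grin1 (limma adjusted p = 0.976). It was 0.15 ± 0.20 for Grin2a, -0.10 ± 0.25 for Grin2b and -0.14 ± 0.11 for Dlg4 (SE, limma adjusted p = 0.976, 0.989 and 0.976). Without zebularine female replicate 3 the Grin1 difference was -0.25 (limma unadjusted p = 0.00359, adjusted p = 0.893).

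Males and females given vehicle were compared to describe the sex difference without zebularine. No member passed, and 0.0123% of tested genes were called. Grin1 was the 1 member whose groups did not overlap, with all vehicle males above all vehicle females, where 6.63% of tested genes had no overlap. Its male minus female log2 difference was 0.11 ± 0.07 (SE), a ratio of 1.08 with a 95% interval from 0.979 to 1.19 (limma adjusted p = 1.00). The differences were 0.17 ± 0.18 for Grin2b, 0.04 ± 0.08 for Dlg4 and 0.00029 ± 0.14 for Grin2a (SE, limma adjusted p = 1.00 for each). All 4 estimates lay above 0, where 47.7% of all tested genes did.

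Under zebularine no member passed between the sexes, and 0.0307% of tested genes were called. Grin2a was the 1 member without overlap, with treated males above treated females, where 15.4% of tested genes had no overlap. Its log2 difference was 0.15 ± 0.14 (SE), a ratio of 1.11 with an interval from 0.899 to 1.37 (limma adjusted p = 0.709). Grin1 had a male minus female difference of -0.06 ± 0.07, Dlg4 of -0.09 ± 0.08 and Grin2b of 0.07 ± 0.18 (SE, limma adjusted p = 0.755, 0.673 and 0.904). Without zebularine female replicate 3 the Grin1 difference was -0.14 (limma unadjusted p = 0.0181, adjusted p = 0.429) and that of Dlg4 -0.17 (limma unadjusted p = 0.0362, adjusted p = 0.467). Without zebularine female replicate 2 they were -0.0079 and -0.03 (limma adjusted p = 0.986 and 0.951). These comparisons share groups with those above and are not independent of them.

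The spread between replicate libraries set what could be seen, and it differed between the genes. The SD within groups was 7.27% to 23.2% of the mean for Grin2b, while its reads gave a counting error of 3.04% on average. For Grin1 it was 1.39% to 9.75% against a counting error of 1.20%, and for Dlg4 1.32% to 9.87% against 0.983%. Grin2a, with the fewest reads, had 6.44% to 22.8% against 5.55%. Counting error was taken from read numbers alone, and PCR copies would add to it. On the log2 scale the residual SD of Grin2b within groups was 0.25, larger than that of 88.2% of the 2890 tested genes nearest to it in level, whose median was 0.12. Grin2a, at 0.14, was more even than most genes of its level, with 15.7% of 1589 such genes below it. Grin1 at 0.08 and Dlg4 at 0.10 had 27.4% and 55.4% of genes of their level below them. Genes of a level were matched on RPKM and not on reads. The Grin2a model of 9775 bases was longer than the median of 2019 over tested genes, and the part of read number in these ranks was not tested.

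**Figure D4:**
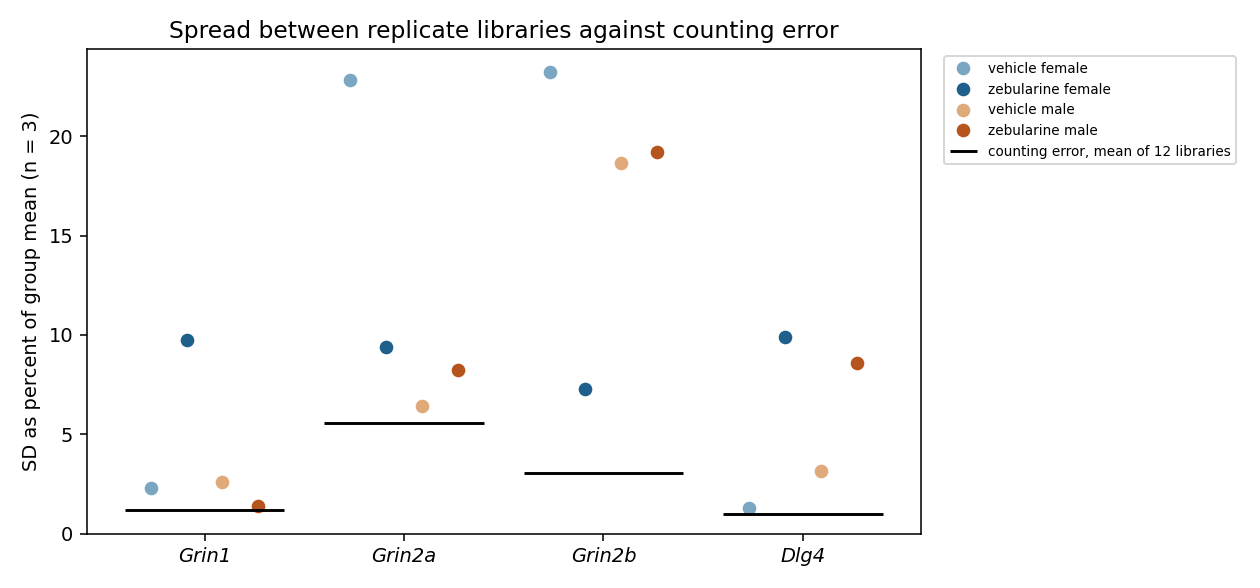
SD within each group as a percent of the group mean (points, n = 3 libraries) for Grin1, Grin2a, Grin2b and Dlg4, with the mean counting error over 12 libraries (black lines). Grin2b reaches 23.2% against a counting error of 3.04%, and Grin1 in zebularine males, at 1.39%, lies close to its counting error of 1.20%.

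Grin1 and Dlg4 varied together across the 12 libraries by Pearson's r, while the rank correlation missed the threshold after adjustment. Their log2 levels had a Pearson r of 0.74 (permutation p = 0.00487, adjusted p = 0.0292 over 6 pairs of members) and a Spearman rho of 0.71 (permutation p = 0.0127, adjusted p = 0.0763). Leaving out zebularine female replicate 3 and vehicle male replicate 3, the libraries farthest from the Grin1 median, gave r = 0.65, and subtracting group means gave r = 0.79. An r at least as high was shared with Grin1 by 1.87% of all other tested genes, and with Dlg4 by 1.73%. All pairs are measured in the same libraries, whose depth and composition they share. The other 5 pairs did not pass. Grin2a and Grin2b had r = 0.48 (permutation p = 0.110, adjusted p = 0.331) and rho = 0.52 (permutation p = 0.0834, adjusted p = 0.250), with r = 0.35 without vehicle female replicates 1 and 2. Grin1 and Grin2b had r = 0.38 and rho = 0.37 (permutation p = 0.228 and 0.239), with r = 0.28 without the same libraries as for Dlg4. For Grin2b and Dlg4 r was 0.28 and rho 0.43 (permutation p = 0.379 and 0.164), with r = 0.31 without vehicle female replicate 2 and vehicle male replicate 2. Grin1 and Grin2a had r = -0.21 and rho = -0.22 (permutation p = 0.520 and 0.484), and Grin2a and Dlg4 r = 0.0020 and rho = 0.17 (permutation p = 0.995 and 0.606). Without the farthest libraries these were r = -0.43 and r = -0.09.

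For each member the most similar gene was taken by Pearson r over the 12 libraries among 14367 other genes of at least 1 RPKM on average. For Grin1 this was ENSRNOG00000033202 (r = 0.94), with 18.6 ± 0.684 RPKM for vehicle females, 19.4 ± 1.97 for zebularine females, 20.5 ± 1.30 for vehicle males and 17.8 ± 0.229 for zebularine males (SD, n = 3). ENSRNOG00000039214 was closest to Dlg4 (r = 0.93), ENSRNOG00000007090 to Grin2b (r = 0.95) and ENSRNOG00000037443 to Grin2a (r = 0.94). Their mean levels were 24.9, 1.88 and 28.8 RPKM. An r of at least 0.8 was reached by 136 genes with Grin1, 85 with Dlg4, 61 with Grin2a and 19 with Grin2b. These genes were picked as the highest of many, and their r describes the pick.

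In whole tissue, a lower level of these neuronal genes from fewer expressing cells cannot be told apart from less RNA in each cell. Markers of neurons and other cell types, other glutamate receptor genes and further postsynaptic scaffold genes are not analysed here, because the gene table used matched 0 of the identifiers.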

How the data were processed

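RNA-seq of 12 rat preoptic area libraries was used, grouped by sample title. The authors deposited RPKM for 29516 Ensembl identifiers per library. The submitters' processing notes name TopHat and no version of it. Counter, genome build, annotation and strand setting: not given in the sources used here, so reads of overlapping or antisense genes may be shared. RPKM scales each library to its own total, so values are relative. Low values were whole multiples of 1 read, within 0.01 of a read for 100% of genes above 0 in at least 2 libraries. This gave 15851435 to 30474454 reads assigned to genes in each library, a 1.92-fold range. Gene model lengths came from the same steps.

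The 16310 genes reaching 0.5 RPKM in 3 or more libraries were tested as log2(RPKM + 0.5) with limma 3.58.1 (R 4.3.3; eBayes with trend; 4 group means, all 12 libraries, two-sided, Benjamini-Hochberg over all genes, threshold 0.05). This scale understates changes of low genes. The fit was tested on simulated data with changes larger than those estimated for the members and no outlying library. That test does not show how the fit performs on changes of the members' size. Correlations used 100000 permutations, two-sided, in Python 3.11.15 with numpy 2.4.6 and scipy 1.17.1. Figures used matplotlib 3.10.9. The named genes are the 4 members and, for each, the gene of highest Pearson r. The members and lists were chosen with earlier results of these data known. Promoter sequences are RefSeq's, assembly GRCr8. They matched Grin1 and Dlg4 by symbol, 2 of 4 members.

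Results were recomputed with pseudocounts of 0.1 and 1, quantile normalization or median-ratio scaling, a filter of 1 RPKM or none, array weights, only the compared groups (comparisons of 2 groups alone), the replicate number as a block, and without each library in turn. A limma-voom fit on recovered reads and a fit without each library's trend with gene model length were added after seeing the data.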

Additional observations from a re-analysis of the deposited data

How the results depend on the processing

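None of the 24 results (4 genes in 6 comparisons) passed in any alternative setting run for it (23, or 22 over both sexes and for the difference in response, where a fit of the compared groups alone uses every group), where the lowest adjusted p was 0.292. Of 544 alternative values, 515 kept their direction and 29 changed sign, 21 of them on leaving out a library. Over both sexes, Grin2a (main log2 change 0.0032) was -0.0025 with median-ratio scaling, -0.0565 with quantile normalization and -0.0198 with the length trend removed, and Dlg4 was 0.0097 with array weights. Grin1 in females was -0.0092 with median-ratio scaling and -0.0289 with the length trend removed. Between vehicle males and females Grin2a was -0.0018 with a pseudocount of 1, and between treated ones Grin2b was -0.0465 with array weights. Leaving out each library gave ranges, over both sexes, of -0.0563 to 0.0655 for Grin2a and -0.0580 to 0.0124 for Dlg4. In females they were -0.0509 to 0.0826 for Grin1, -0.192 to 0.0518 for Grin2a, -0.317 to 0.0084 for Grin2b and -0.0217 to 0.119 for Dlg4. The difference in response ran from -0.246 to 0.0793 for Grin2b, from 0.0274 to 0.271 for Grin2a and from -0.213 to -0.0625 for Dlg4. Grin2b over both sexes ran from -0.278 (without vehicle female replicate 2) to -0.115 (without vehicle female replicate 3). Under vehicle the sex difference ran from -0.119 to 0.125 for Grin2a and from -0.0089 to 0.317 for Grin2b, and under zebularine from -0.0731 to 0.161 for Grin2b. The cause was not tested.

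With the replicate number as a block, Grin1 in males kept a log2 change of -0.17 (limma adjusted p = 0.708) and no member passed. The labels do not say what the replicate number stands for. Deviations of same-numbered libraries of different groups correlated at -0.30 to 0.30 over 18 pairs, and 5 pairs were over 0.1. Different-numbered libraries correlated at -0.29 to 0.23 over 36 pairs, and 8 pairs were over 0.1. Whether same-numbered libraries share a source was not tested. Genes called over both sexes numbered 66, 9 with the block and 11 to 111 on leaving out a library. In females they numbered 7, 1 with the block, with limma-voom or with only the compared groups, and 0 to 56 on leaving out a library. The difference in response had 0 calls, and 2 with no filter on low values.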
